A study of Mus musculus with 10 samples.

Results

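The genes described here are 9 components of the angiotensin and endothelin systems, 2 peptide systems that set vessel tone and act on heart muscle and fibroblasts. They were chosen by name as precursors, converting enzymes and receptors: Agt, Ace, Agtr1a, Agtr2, Edn1, Edn3, Ece1, Ednra and Ednrb. All 9 were among the 15341 genes of the count table, and 8 of them were among the 12992 genes that passed a filter on low counts. RNA was sequenced from the hearts of 5 S1Pless mice, labelled Sphk1f/-:Sphk2f/-:Mx1Cre+, and 5 littermate controls, labelled Sphk1f/-:Sphk2f/-:Mx1Cre-, all male. Both groups thus carried 1 floxed and 1 null allele of each sphingosine kinase gene, and they differed by Mx1-Cre. This is a recombinase under the promoter of an interferon response gene, which acts strongly in blood-forming tissue and to varying degrees elsewhere. The sources used here state neither the ages nor how the recombinase was induced. A difference between the groups is therefore one between animals with and without the recombinase and its deletions in whichever cells it acted, which may include cells of the heart. RNA of heart tissue with its mixed cells was measured, so fewer cells of a type and less RNA per cell cannot be told apart.

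Angiotensinogen, encoded by Agt, is the secreted protein from which renin cuts angiotensin I. Angiotensin-converting enzyme, encoded by Ace and anchored on endothelium, trims this to angiotensin II, which contracts vessels and promotes growth and matrix formation through the AT1 receptor of Agtr1a, while the AT2 receptor of Agtr2 is mostly a fetal gene. Endothelins are made as longer precursors from Edn1 and Edn3 and are cut to the active peptide by the membrane protease ECE-1 of Ece1. Ednra encodes the ETA receptor of muscle cells and fibroblasts, which prefers endothelin-1, and Ednrb the ETB receptor, which binds both peptides alike and on endothelium releases nitric oxide and clears endothelin-1.

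The coding stretches of the active peptides show what the precursor genes hold and how alike the endothelins are. Each was found by its residue pattern in the longest open reading frame of the transcripts of GENCODE M21 (build GRCm38), and each lies in exon 2. The stretch of Edn1 is at chr13:42303649-42303711 on the plus strand, that of Edn3 at chr2:174761749-174761811 on the plus strand and that of Agt at chr8:124564450-124564479 on the minus strand. Capitals mark the 4 cysteine codons of each endothelin, which form its disulfide bonds, and in Agt the 8 codons of angiotensin II, which ACE frees by removing the residues of the last 2.
Edn1: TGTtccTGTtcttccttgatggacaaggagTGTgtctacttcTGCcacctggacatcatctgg
Edn3: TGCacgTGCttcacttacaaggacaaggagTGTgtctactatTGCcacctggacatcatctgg
Agt: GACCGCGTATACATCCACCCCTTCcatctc
The stretches of Edn1 and Edn3 matched at 50 of 63 bases, and 15 of their 21 codons encoded the same residue. All the cysteine codons were among those that encoded the same residue.

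The libraries held 16354071 to 20832566 counts in S1Pless hearts and 17204491 to 20202283 in controls. Levels are given as CPM, counts scaled to library size and by TMM factors, and 1 count was worth 0.0451 to 0.058 CPM in S1Pless hearts and 0.0532 to 0.0658 CPM in controls. The heart markers Myh6 and Tnnt2 were at 6940 CPM or more in every library. S1Pless replicate 5 stood apart by a summed level of 12 macrophage markers of 1230 CPM, against 483 to 617 CPM in the other S1Pless hearts and 303 to 401 CPM in controls. S1Pless replicate 3 had 167 reads of the atrial gene Myl7, against at most 3 in any other library. How much of the atria each sample held was not tested. The targeted genes averaged 0.723 ± 0.213 CPM (Sphk1) and 16.8 ± 1.94 CPM (Sphk2) in S1Pless hearts, against 1.21 ± 0.357 and 20.2 ± 2.3 CPM in controls (SD, n = 5 each), and neither passed the test (edgeR adjusted p = 0.168 and 0.18). The reads do not show how much of either gene was deleted in which cells. The groups were compared by the quasi-likelihood test of edgeR, and a gene was called when its Benjamini-Hochberg adjusted p was under 0.05. Of 12992 genes 483 were called, or 3.72%, with 442 (3.4%) higher in S1Pless hearts and 41 (0.316%) lower. Without S1Pless replicates 3 and 5 together, 0.671% were called higher and 0.0839% lower.

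None of the 8 tested genes of the angiotensin and endothelin systems was called in either direction, with all hearts or without S1Pless replicates 3 and 5. In edgeR's test 2 had an unadjusted p below 0.05, Edn1 with lower and Ednrb with higher values in S1Pless hearts. Of all genes 19.9% were past that level, 6.82% lower and 13% higher. DESeq2 called 1 of them, Edn1, lower (adjusted p = 0.0301), with 1.92% of its genes called lower and 5.45% higher. Edn1 was also called lower by limma-voom with quality weights (adjusted p = 0.0446), with 0.439% called lower and 3.98% higher. When libraries were scaled by their totals only, without TMM factors, Ednrb and Ece1 were called higher (edgeR adjusted p = 0.0325 and 0.0492). That scaling raised the median log2 fold change of all genes by 0.136 and called 10.9% of them higher and 0.1% lower. The groups did not overlap in 3 of the 8, Edn1 below and Ednrb and Ece1 above, a pattern seen in 6.35% of all genes tested (1.82% with S1Pless below and 4.53% above). The median log2 fold change of the 8 was -0.01, and that of all genes tested -0.01.

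**Figure D1:**
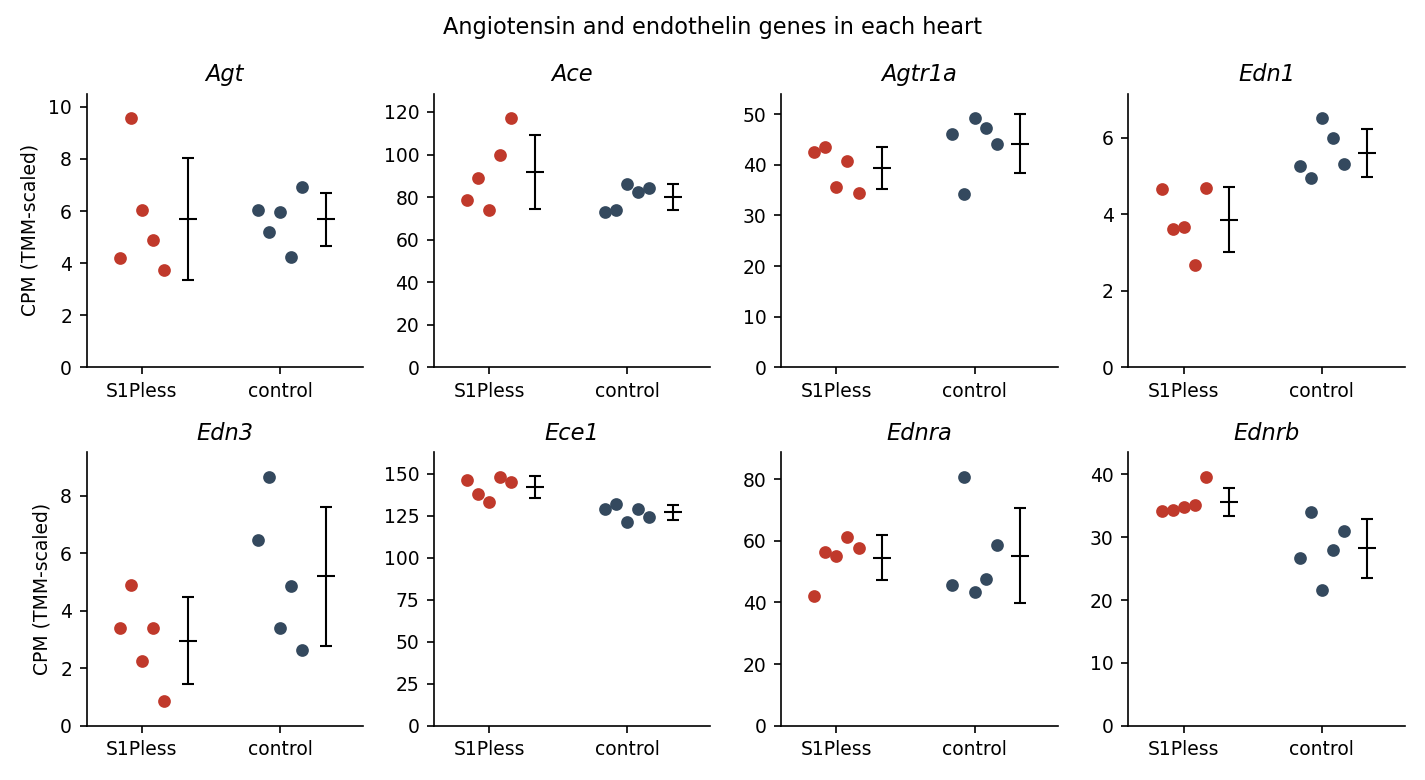
Level of each tested member in CPM (vertical axis, from 0) in the 5 S1Pless and 5 control hearts. Points are hearts, in replicate order from left to right, and the bar beside them is the mean with its SD. Edn1 points of S1Pless hearts all lie at or below 4.69 CPM, under the lowest control at 4.95 CPM, and those of Ednrb and Ece1 all lie above their controls.

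Among the precursors, Agt (ENSMUSG00000031980, chromosome 8) did not separate the groups. It had 4.2, 9.56, 6.04, 4.89 and 3.74 CPM in S1Pless replicates 1 to 5, against 6.05, 5.21, 5.96, 4.25 and 6.93 CPM in control replicates 1 to 5. S1Pless replicate 2 was the highest of all hearts and S1Pless replicate 5 the lowest. The means were 5.68 ± 2.33 CPM in S1Pless hearts and 5.68 ± 1.01 CPM in controls (SD, n = 5 each), a fold of 0.999 with a 95% interval of 0.707 to 1.41 (edgeR adjusted p = 0.999). Most angiotensinogen of the blood comes from the liver. Of 2 liver markers counted, Alb had no read in any library. The other, Apoa2, had 8 to 9 reads in S1Pless hearts and 5 to 17 in controls and was not tested. The source of the Agt reads was not tested.

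Ace (ENSMUSG00000020681, chromosome 11), the converting enzyme, was higher in some S1Pless hearts only. Its levels were 78.4, 89, 73.8, 100 and 117 CPM in S1Pless replicates 1 to 5 and 72.8, 73.9, 86.3, 82.6 and 84.2 CPM in control replicates 1 to 5. S1Pless replicates 2, 4 and 5 lay above the highest control, and replicates 1 and 3 lay within the control range. The means were 91.6 ± 17.3 CPM in S1Pless hearts and 79.9 ± 6.19 CPM in controls, a log2 fold change of 0.20 ± 0.12 (SE, edgeR adjusted p = 0.39). The interval of the fold ran from 0.959 to 1.37.

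The AT1 receptor gene Agtr1a (ENSMUSG00000049115, chromosome 13) had 42.6, 43.5, 35.7, 40.7 and 34.4 CPM in S1Pless replicates 1 to 5, against 46.2, 34.2, 49.2, 47.2 and 44.1 CPM in control replicates 1 to 5. The highest S1Pless heart lay below 4 of the 5 controls, but control replicate 2 was the lowest of all hearts. The log2 fold change was -0.17 ± 0.11 (edgeR adjusted p = 0.42), and the interval of the fold was 0.76 to 1.05. The AT2 receptor gene Agtr2 (ENSMUSG00000068122, chromosome X) was at the limit of detection, with 0 reads in all 5 S1Pless hearts and in control replicates 1 to 4, and 1 read in control replicate 5. A limit of 3 reads per library corresponds to 0.135 to 0.197 CPM and covers counting error only. Agtr2 was therefore not tested, and no fold is given.

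Edn1 (ENSMUSG00000021367, chromosome 13), the endothelin-1 precursor, showed the clearest separation of the ligand genes. S1Pless replicates 1 to 5 had 4.65, 3.6, 3.66, 2.67 and 4.69 CPM, from 53 to 103 reads. Control replicates 1 to 5 had 5.26, 4.95, 6.5, 5.99 and 5.31 CPM, from 80 to 122 reads. Every S1Pless heart lay below every control, with a gap from 4.69 CPM to 4.95 CPM between the nearest hearts. The means were 3.85 ± 0.842 CPM in S1Pless hearts and 5.6 ± 0.629 CPM in controls, a log2 fold change of -0.54 ± 0.16 (edgeR unadjusted p = 0.00556, adjusted p = 0.0879). The fold was 0.69 with an interval of 0.541 to 0.88. The summed level of 10 endothelial markers, the main cells that make endothelin-1, was 1970 to 2400 CPM in S1Pless hearts and 1830 to 2340 CPM in controls. Of these markers 1 rose, the transcription factor gene Erg, and none fell. At an unadjusted p below 0.05 (edgeR) 3 were higher (Erg, Pecam1 and Cdh5) and 0 lower. Of all genes tested 3.4% were called higher and 0.316% lower, and 13% were higher and 6.82% lower at that unadjusted level. The endothelial markers did not all go 1 way, since 6 had a positive and 4 a negative log2 fold change, with a median of 0.1. The part of the endothelial markers in the Edn1 values was not tested. The log2 fold change of Edn1 was negative under each of the 19 alternatives, from -0.63 to -0.40, with adjusted p-values of 0.0301 to 0.19.

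The 300 bases around the RefSeq start of Edn1 are shown because endothelin-1 output is set largely by transcription of this gene. They lie at chr13:42301226-42301525 on the plus strand (RefSeq, GRCm38.p6), with 250 bases before and 50 after the RefSeq start. Capitals mark matches on either strand to motifs of factor families known to act on the human EDN1 promoter, AGATAA for GATA factors, TGANTNA for AP-1 and ACGTG for hypoxia-inducible factors.
Edn1 promoter: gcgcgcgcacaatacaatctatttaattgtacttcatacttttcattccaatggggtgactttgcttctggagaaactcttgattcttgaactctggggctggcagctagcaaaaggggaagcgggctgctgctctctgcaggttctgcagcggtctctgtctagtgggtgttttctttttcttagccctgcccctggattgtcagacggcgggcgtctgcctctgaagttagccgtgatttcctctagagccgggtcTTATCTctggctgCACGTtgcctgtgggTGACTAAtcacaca
Each motif matched once. The GATA match lay at bases 259 to 264, that of the hypoxia motif at bases 272 to 276 and that of AP-1 at bases 287 to 293 of the window, without overlap. All of them thus lay in the 50 bases after the RefSeq start, and the 250 bases before it held no match. These positions hold for that annotated start only. Where transcription of Edn1 began in these hearts was not measured, so the matches may lie before or after the start in use. Of 32851 RefSeq promoters of this length, 11.2% held the GATA motif, 35.3% the AP-1 motif and 19.6% the hypoxia motif. None of the 3 motifs matched in the windows of Agt, Ace, Edn3, Ednra and Ednrb. The Agtr2 window held 2 AP-1 matches, and 1 of the Ece1 windows held 2 overlapping matches to the hypoxia motif, on opposite strands. No window of Agtr1a was examined. These matches describe letters in the windows and were not tied to the counts.

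Edn3 (ENSMUSG00000027524, chromosome 2), the endothelin-3 precursor, varied more between hearts than any other tested member of the systems. It had 3.39, 4.9, 2.26, 3.38 and 0.853 CPM in S1Pless replicates 1 to 5, against 6.45, 8.65, 3.41, 4.85 and 2.63 CPM in control replicates 1 to 5. S1Pless replicate 5 was the lowest with 18 reads, and control replicate 2 the highest with 161. The coefficient of variation was 50.9% in S1Pless hearts and 46.6% in controls. The log2 fold change was -0.81 ± 0.39 (edgeR adjusted p = 0.271), and the fold of 0.571 had an interval of 0.318 to 1.02. The groups overlapped, since S1Pless replicates 1, 2 and 4 lay above control replicate 5.

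Ece1 (ENSMUSG00000057530, chromosome 4), the endothelin-converting enzyme, was the most even of the 8 genes. Its levels were 146, 138, 133, 148 and 145 CPM in S1Pless replicates 1 to 5, against 129, 132, 121, 129 and 124 CPM in control replicates 1 to 5. Every S1Pless heart lay above every control, with 133 CPM in the lowest S1Pless heart and 132 CPM in the highest control. The coefficient of variation was 4.57% in S1Pless hearts and 3.38% in controls. The log2 fold change was small, 0.16 ± 0.08 (edgeR unadjusted p = 0.0558, adjusted p = 0.265), with a fold of 1.12 and an interval of 0.997 to 1.25.

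The receptor genes of endothelin are Ednra (ENSMUSG00000031616, chromosome 8) and Ednrb (ENSMUSG00000022122, chromosome 14). Ednra had 42.1, 56.4, 55, 61.1 and 57.7 CPM in S1Pless replicates 1 to 5, against 45.6, 80.7, 43.3, 47.5 and 58.7 CPM in control replicates 1 to 5. Control replicate 2 stood above all other hearts, and the rest of the groups overlapped. The log2 fold change was -0.02 ± 0.16 (edgeR adjusted p = 0.962), with an interval of the fold of 0.776 to 1.25, and it was 0.16 without control replicate 2. Ednrb had 34.2, 34.4, 34.8, 35.1 and 39.6 CPM in S1Pless replicates 1 to 5, against 26.7, 34, 21.6, 27.9 and 31 CPM in control replicates 1 to 5. Every S1Pless heart lay above every control, but the lowest S1Pless heart and control replicate 2 were 34.2 and 34 CPM. The mean was 35.6 ± 2.24 CPM in S1Pless hearts and 28.2 ± 4.67 CPM in controls (SD, n = 5 each), a log2 fold change of 0.33 ± 0.11 (edgeR unadjusted p = 0.00829, adjusted p = 0.105). The fold of 1.26 had an interval of 1.07 to 1.48. Endothelium is a source of Ednrb. Of 7 lymphatic markers 4 rose and none fell, with a summed level of 161 to 209 CPM in S1Pless hearts and 130 to 171 CPM in controls. At an unadjusted p below 0.05 (edgeR) 5 were higher and 1 was lower, Prox1. Prox1 averaged 61.9 CPM in S1Pless hearts and 78.2 CPM in controls. Of all genes tested 3.4% were called higher, and 13% were higher and 6.82% lower at that unadjusted level. The part of the lymphatic markers in the Ednrb values was not tested.

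The 5 control hearts lay in the same order for both endothelin receptor genes, with replicate 3 lowest, then replicates 1, 4 and 5, and replicate 2 highest. For Agtr1a replicate 2 was the lowest control and replicate 3 the highest. Plvap, 1 of 4 tested endocardial markers, lay in the same order as the endothelin receptor genes in the controls, so that order was not particular to them. The other tested endocardial markers, Npr3, Nfatc1 and Tmem108, lay in different orders. These orders are a description of 5 libraries.

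**Figure D2:**
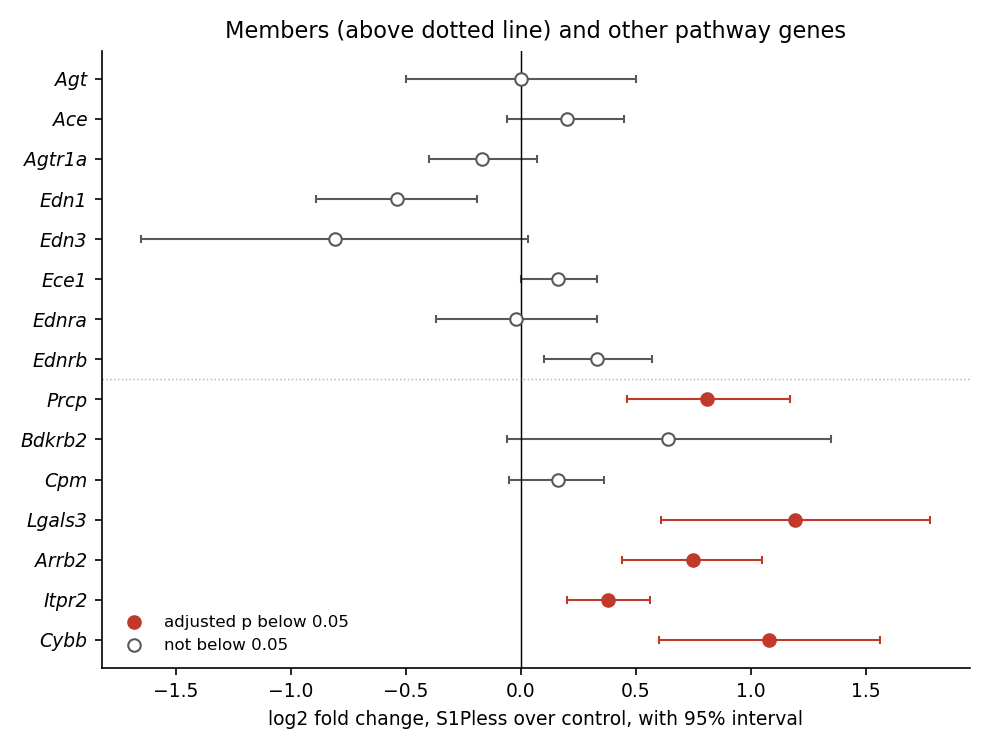
Log2 fold change, S1Pless over control, with its 95% interval (bars) for the 8 tested members and, under the dotted line, 7 other pathway genes named in the text. Filled red points passed an adjusted p of 0.05. Among the members the intervals of Edn1 (-0.89 to -0.19) and Ednrb (0.10 to 0.57) leave out 0, and no member passed.

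Ratios within a heart do not depend on the scaling between libraries. Of 3 that were compared, 2 are given. They are ratios of read counts and not of molecules. Per read of Ece1 there were 0.032, 0.0263, 0.0278, 0.0182 and 0.0324 reads of Edn1 in S1Pless replicates 1 to 5, against 0.041, 0.0377, 0.0538, 0.0468 and 0.043 in control replicates 1 to 5. The groups did not overlap. This followed from the levels given above, since every S1Pless heart lay below the controls for Edn1 and above them for Ece1. The p of this ratio was thereby fixed in advance and adds nothing to those levels. The log2 ratio was -5.22 ± 0.34 in S1Pless hearts and -4.50 ± 0.20 in controls (SD, n = 5 each), a difference of -0.72 (two-sided exact permutation p = 0.00794, the smallest that 5 hearts against 5 can give, adjusted p = 0.0238 over the 3 ratios). Leaving out any 1 heart left the difference at -0.79 to -0.58, and the exact permutation p stayed at 0.00794. The groups did not overlap there either, so these p-values also add nothing to the levels. A difference in such a ratio can come from either gene or from both, and the ratio does not say which of them differed.

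Per read of Ednrb there were 1.23, 1.64, 1.58, 1.74 and 1.46 reads of Ednra in S1Pless replicates 1 to 5, against 1.71, 2.37, 2, 1.7 and 1.9 in control replicates 1 to 5. S1Pless replicate 4 lay within the control range, and the other 4 lay below it. The log2 ratio was 0.60 ± 0.19 in S1Pless hearts and 0.94 ± 0.20 in controls, a difference of -0.34 (two-sided exact permutation p = 0.0238, adjusted p = 0.0357). The adjusted p missed 0.05 when S1Pless replicate 1, 2 or 5 was left out (0.0833, 0.0714 and 0.0714) and when control replicate 2 or 3 was (0.0714 and 0.0595).

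**Figure D3:**
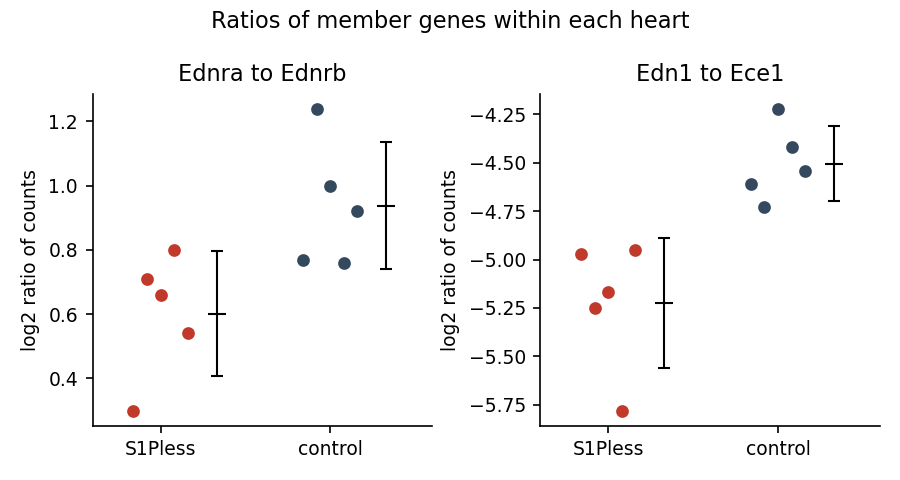
Log2 ratio of read counts within each heart (vertical axes, which differ between panels and do not start at 0) for Ednra to Ednrb and Edn1 to Ece1. Points are hearts, and the bar is the mean with its SD. The Edn1 to Ece1 ratios of S1Pless hearts, from -5.78 to -4.95, all lie below those of controls, from -4.73 to -4.22.

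Levels of different genes were compared per kilobase of exon, with the merged exons of GENCODE M21 as the length. Over all hearts the mean level per kilobase was 25.4 for Ece1, 16.2 for Ace, 15 for Agtr1a, 10 for Ednra, 7.49 for Ednrb, 3.01 for Agt, 2.21 for Edn1 and 0.991 for Edn3. In 10 of 10 hearts Ece1 lay above Ace, Ednrb above Agt and Edn1 above Edn3. Ace lay above Agtr1a in 4 of 5 S1Pless hearts and 2 of 5 controls, so this pair had no fixed order. Ednra lay above Ednrb in 9 of 10 hearts and Agt above Edn1 in 8 of 10. The tested enzyme and receptor genes stood above the 3 precursor genes in mean level. The lengths come from another annotation than the authors' counts, which limits how exact this order is.

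**Figure D4:**
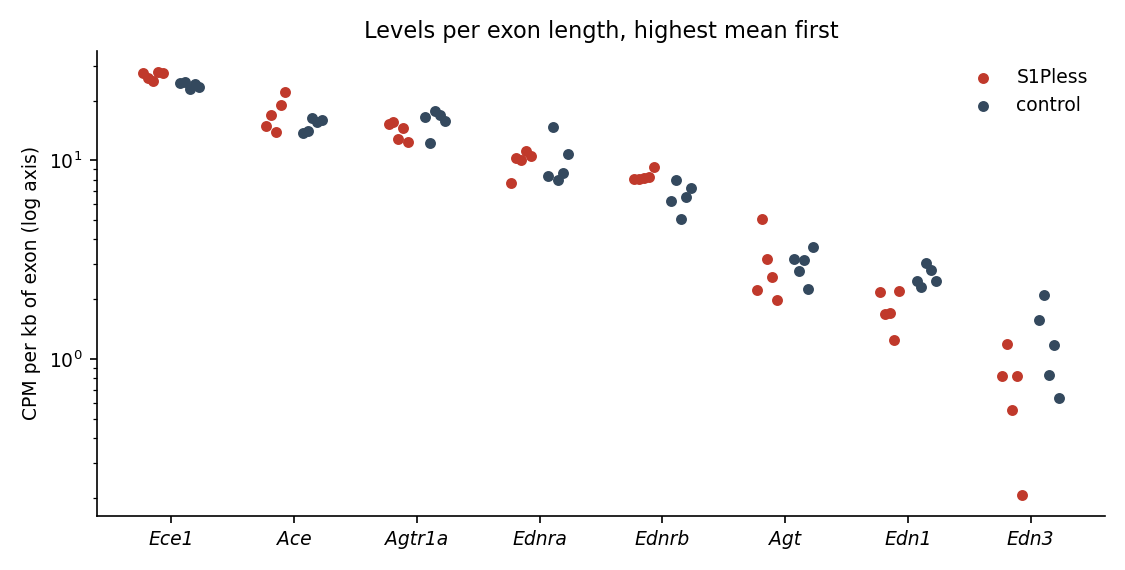
Level per kilobase of merged exon (vertical log axis, CPM per kb) of each tested member in the 5 S1Pless and 5 control hearts, ordered by the mean over all hearts. Points are hearts. Edn3, with a range of 0.207 to 2.1, is spread widest, and Ece1, from 22.9 to 27.9, least.

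Genes whose deviations from the group means were most like those of a member over the 10 hearts were searched among 8582 genes with a mean of 10 CPM or more. For Edn1 they were Slc35b2 (Pearson r = 0.917), a sulfate donor transporter of the Golgi, and Prorsd1 (r = 0.912). For Ednrb they were Elf4, an ETS transcription factor (r = 0.957), and the kinase gene Taok3 (r = 0.948). For Ednra they were the chaperone gene Hsp90aa1 (r = 0.955) and Atad1 (r = 0.942), and for Edn3 Rab40c (r = 0.949) and the vessel growth factor gene Vegfa (r = 0.937). For Ece1 they were the adaptor gene Sh2b3 (r = 0.902) and Gpr108 (r = 0.899). For Agt they were Mterf2 (r = 0.957) and Lztfl1 (r = 0.932), for Ace Rap1gds1 (r = 0.943) and Pde12 (r = 0.922), and for Agtr1a Cops5 (r = 0.956) and Prkra (r = 0.943). As the highest of 8582 values in the same 10 libraries, these are a description only.

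Of 13 other tested genes of the renin-angiotensin system, 1 rose and none fell. It was Prcp, prolylcarboxypeptidase, which cuts the last residue from angiotensin II. Prcp had 17.6, 21.5, 15.7, 19.1 and 26.8 CPM in S1Pless replicates 1 to 5, against 13.6, 8.01, 13.6, 9.91 and 12.5 CPM in control replicates 1 to 5. The groups did not overlap, and the fold was 1.76 with an interval of the log2 fold change of 0.46 to 1.17 (edgeR adjusted p = 0.0201). Its adjusted p was 0.0596 without control replicate 4 and 0.0595 without both S1Pless replicates 3 and 5. In this list 2 genes were higher and 1 lower at an unadjusted p below 0.05, and the median log2 fold change was -0.05. Among all genes tested 3.4% were called higher and 0.316% lower, and 13% were higher and 6.82% lower at that unadjusted level. DESeq2 and limma-voom each called 1 gene of the list higher and 0 lower, where they called 5.45% and 3.98% of all their genes higher. Ren1, which encodes renin, was not analysed here. The mast cell proteases Cma1 and Cpa3 were below the filter.

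Of 5 other endothelin genes, Edn2 and Ecel1 had at most 2 reads in any library and were not tested, and Ece2, Kel and Mmel1 were not analysed here. Of the kinin genes, whose peptide bradykinin ACE breaks down, 3 were tested and none passed in edgeR, DESeq2 or limma-voom, with 0 at an unadjusted p below 0.05. Bdkrb2, the bradykinin B2 receptor, averaged 0.746 ± 0.269 CPM in S1Pless hearts and 0.472 ± 0.123 CPM in controls (edgeR adjusted p = 0.301), and Cpm, carboxypeptidase M, 13.5 ± 1.37 CPM in S1Pless hearts and 12.2 ± 0.903 CPM in controls (adjusted p = 0.385).

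Genes downstream of the receptors gave a few calls, in a table where 3.4% of all genes were called higher and 0.316% lower, and where 13% were higher and 6.82% lower at an unadjusted p below 0.05. Of 22 genes of Gq signalling and its brakes 2 rose and none fell, with 4 higher and 1 lower at an unadjusted p below 0.05 and a median log2 fold change of 0.07. Arrb2, beta-arrestin 2, which turns off and redirects the AT1 receptor and other receptors, rose 1.68-fold to 22.2 ± 5.39 CPM in S1Pless hearts, against 13.3 ± 1 CPM in controls (edgeR adjusted p = 0.0162). Itpr2, a calcium release channel of heart muscle and other cells, rose 1.3-fold to 35.4 ± 2.8 CPM in S1Pless hearts, against 27.2 ± 1.94 CPM in controls (adjusted p = 0.0252). Itpr2 did not pass when control replicate 2, 3 or 4 was left out, nor without S1Pless replicate 5 (adjusted p = 0.0538, 0.0659, 0.0521 and 0.0755). Arrb2 passed whichever 1 heart was left out. Without both S1Pless replicates 3 and 5 neither passed (adjusted p = 0.142 for Itpr2 and 0.0513 for Arrb2).

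Of 15 tested genes that angiotensin II or endothelin-1 can induce, 1 rose and none fell, with 3 higher and 1 lower at an unadjusted p below 0.05 and a median log2 fold change of 0.31. It was Cybb, which encodes the NADPH oxidase subunit NOX2, with 25.3, 21.6, 21, 22.2 and 51.6 CPM in S1Pless replicates 1 to 5, against 13.6, 13.3, 12.6, 12.9 and 14.9 CPM in control replicates 1 to 5. The fold was 2.11 (edgeR adjusted p = 0.0218), but adjusted p was 0.0637 without control replicate 3 and 0.063 without control replicate 4. Of 4 tested genes of the mineralocorticoid axis, which angiotensin II drives through aldosterone, 1 rose and none fell, with 2 higher and 1 lower at an unadjusted p below 0.05. It was Lgals3, galectin-3, an aldosterone-responsive gene that macrophages also express. Lgals3 averaged 8.69 ± 4.37 CPM in S1Pless hearts and 3.82 ± 0.802 CPM in controls (edgeR adjusted p = 0.0303), and its adjusted p was 0.0551, 0.0734, 0.0827 and 0.0666 without control replicate 2, 3, 4 or 5. DESeq2 called 2 of the induced genes higher and limma-voom 1, both called 1 of the mineralocorticoid genes and 2 of the Gq genes higher, and neither called any of these lower.

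Cybb, Lgals3, Arrb2 and Prcp are also expressed by macrophages. Of 12 macrophage markers 6 rose and none fell, and none was at 0. All 12 had higher values in S1Pless hearts at an unadjusted p below 0.05 (edgeR). Of all genes tested 3.4% were called higher and 0.316% lower, and 13% were higher and 6.82% lower at that unadjusted level. The summed level of the macrophage markers was 483 to 1230 CPM in S1Pless hearts and 303 to 401 CPM in controls. The part of macrophages in these 4 results was not tested. The summed level of 8 cardiomyocyte markers was 47800 to 58500 CPM in S1Pless hearts and 57900 to 64700 CPM in controls, with 0 of 8 called. All 8 had a negative log2 fold change, with a median of -0.18, and 1 was lower at an unadjusted p below 0.05 (edgeR).

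**Figure D5:**
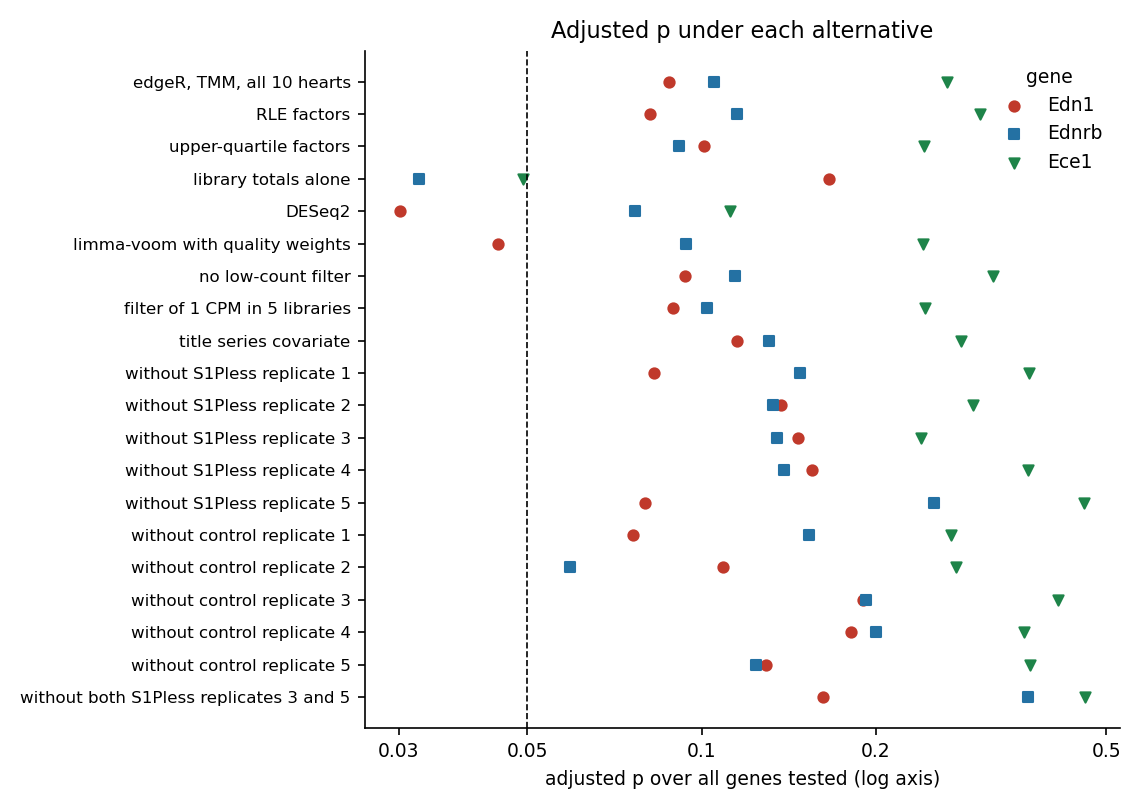
Adjusted p over all genes (horizontal log axis) of Edn1, Ednrb and Ece1 in the comparison with all hearts and under the 19 alternatives (rows). The dashed line is 0.05. Edn1 lies left of the line with DESeq2 and limma-voom, and Ednrb and Ece1 with library totals alone. With any 1 heart left out all 3 lie right of it, at 0.0592 or more.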

How the data were processed

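RNA of hearts from 10 male mice was sequenced. The authors deposited 1 table of raw counts, with an Ensembl identifier for each gene. STAR 2.7.8a, featureCounts 2.0.1 and GRCm39 come from the submitters' processing notes. The sources used here do not give the annotation, the strand setting or how the genes of the table were selected. Without the strand setting, reads of antisense transcripts that share exons with Ace, Edn1 and Ednra cannot be told apart from theirs. Sphk2 shares 539 exonic bases with Dbp and 373 with Rpl18, both counted genes of the opposite strand, so the same limit holds for its values.

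Symbols came from GENCODE M21, which lacked 20 of 15341 identifiers. Groups follow the genotype label. Replicates are numbered in accession order, and p-values measure the spread between these hearts, which the labels give as separate samples. All 20 pairs of hearts within a group differed by more than sampling noise (lowest chi-square of 10.2 for each degree of freedom). The main test was that of edgeR 4.0.16 (R 4.3.3), two-sided, over 12992 genes: filterByExpr at its minimum count of 10, TMM, robust glmQLFit, glmQLFTest. A standard error is the size of the log2 fold change over the root of F, and 95% intervals use the degrees of freedom of F. The test was checked on simulated counts. Ratios used counts plus 0.5 and exact permutation tests. Alternatives were RLE and upper-quartile factors, library totals alone, DESeq2 1.42.0, limma-voom (limma 3.58.1), other filters, a covariate for the 2 number ranges of the sample titles, whose meaning is not given, a pseudocount of 5, and leaving out each heart. Leaving out both S1Pless replicates 3 and 5 was added after seeing the data.

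The members, the gene lists and the tests were chosen with earlier results of these data known. By rule the text names the 9 members, Sphk1 and Sphk2, up to 4 called genes of each other list or, where none was called, the 2 with the smallest p, and the 2 genes most like each member. One ratio within each heart is not reported here, though p-values are adjusted over all 3. Cell markers, genes that overlap Sphk2 and genes that were not tested or not analysed here are named outside this rule. Erg, Pecam1, Cdh5, Prox1, Plvap, Npr3, Nfatc1 and Tmem108 were chosen after their values were seen.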

Additional observations from a re-analysis of the deposited data

Results flagged for a closer look

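In 3 of 40 groups of 5 hearts, over 17 genes and 3 ratios, 1 heart lay far from the other 4 of its group, and chance flags about 1 in 20. All 3 were S1Pless replicate 5. It had 39.6 CPM of Ednrb, against 34.2 to 35.1 CPM in the other S1Pless hearts. It had 16.5 CPM of Lgals3, against 6.35 to 7.22 CPM, and 51.6 CPM of Cybb, against 21 to 25.3 CPM. The same heart had the highest summed level of macrophage markers, 1230 CPM, and its part in these values was not tested. Without it the log2 fold change of Ednrb was 0.29 (edgeR adjusted p = 0.252), against 0.33 with all hearts.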

How the results depend on the processing

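No paired analysis was possible because the labels give no replicate number that the groups share and do not say which animals were littermates, so litter was not part of any fit. Genes called higher over the whole table numbered 442, and 1420 with library totals alone, 753 with DESeq2, 88 without both S1Pless replicates 3 and 5 and 118 to 504 with 1 heart left out (118, 122, 261 and 223 without control replicates 3, 4, 2 or 5, and 269 and 221 without S1Pless replicates 1 or 5). Those called lower numbered 41, and 13, 266, 11 and 8 to 85 under the same alternatives (8, 9, 17, 14 and 85 without control replicates 3, 4, 2, 5 or 1, and 19, 19 and 18 without S1Pless replicates 1, 4 or 5). Members called higher numbered 0, and 2 with library totals alone. Members called lower numbered 0, and 1 with DESeq2 and 1 with limma-voom. With 1 heart left out 0 members were called in either direction (0 to 0). The difference in the log2 ratio of Ednra to Ednrb, S1Pless minus control, ran from -0.39 to -0.26 with 1 heart left out. Agt, at 0.00 on the log2 scale, took the opposite sign with upper-quartile factors (0.01), library totals alone (0.13), limma-voom (0.06), the filter of 1 CPM in 5 libraries (0), the title number covariate (0.02) and without both S1Pless replicates 3 and 5 (0.12), and ran from -0.27 to 0.11 with 1 heart left out. Ednra took it with library totals alone (0.11) and limma-voom (0.01), and ran from -0.10 to 0.16 with 1 heart left out. The causes were not tested. Ace, Agtr1a, Edn1, Edn3, Ednrb, Ece1 and the 7 other pathway genes named by rule kept their direction under every alternative run. Without both S1Pless replicates 3 and 5, Prcp, Lgals3, Arrb2 and Itpr2 lost their calls (adjusted p of 0.0513 to 0.142), and Lgals3 also with the title number covariate (adjusted p = 0.0516). Depth limits Edn3, with 18 to 161 reads per library, and Agtr2, with at most 1.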
